A study of Macaca nemestrina with 15 samples.

Results

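The genes described are 7 transporters that carry nucleosides, nucleotides and their drug analogues across membranes, chosen by name: the equilibrative nucleoside transporters *SLC29A1*, *SLC29A2* and *SLC29A3* and the ATP-driven efflux pumps *ABCC1*, *ABCC4*, *ABCC5* and *ABCB1*. Of these 7, 6 were analysed and all 6 passed the filter on low counts, out of 28865 features in the table and 12880 tested. *ABCB1* was not analysed here. The libraries came from peripheral blood mononuclear cells (PBMCs) of 5 female pig-tailed macaques (*Macaca nemestrina*) that received islatravir (ISL) by mouth at 30 mg/kg in 12 weekly doses. Each animal gave a pre-treatment, a week 12 and a week 18 sample, 15 libraries in all, and the labels name ISL as the treatment of both later groups although a course of 12 weekly doses ends before a week 18 sample. No untreated animals were sequenced, so an effect of ISL and any other change over the same weeks cannot be told apart.

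ISL is a deoxyadenosine analogue that blocks HIV reverse transcriptase after cellular kinases have turned it into a triphosphate. Equilibrative nucleoside transporters let nucleosides cross a membrane down their concentration gradient in either direction, whereas the ABCC pumps, also called multidrug resistance-associated proteins (MRPs), spend ATP to export organic anions, among them cyclic nucleotides and the monophosphates of nucleoside drugs. The balance of both kinds of protein is one of the known determinants of how much nucleoside drug a lymphocyte or monocyte holds. Transcript counts measure neither the protein nor the transport.

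Per library, 5610597 to 10379572 reads fell on genes, and the 2 shallowest libraries were those of Z15303 at week 12 and week 18. Values are given as CPM, the reads of a gene scaled to a common library total after TMM normalization, and they are compared between libraries of 1 gene and not between genes, since transcript lengths were not used here. By its library name, each later sample was dated 56 to 57 days (week 12) or 84 days (week 18) after the first of that animal, which differs from the week labels. The labels are kept as names, and the exact time from the last dose to a later sample cannot be told from these dates. Read as sampling dates, they would put week 12 before the last of 12 weekly doses begun after the first sample. They would also put week 18 closer to the last dose than the week labels do. Z15339, Z15303 and Z15408 share all library dates, and Z15228 and Z13076 each have dates of their own. Defining markers of T cells, B cells and monocytes were present in every library, as the PBMC label implies. In bulk RNA, fewer cells of a type and less RNA per cell cannot be told apart.

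**Figure D1:**
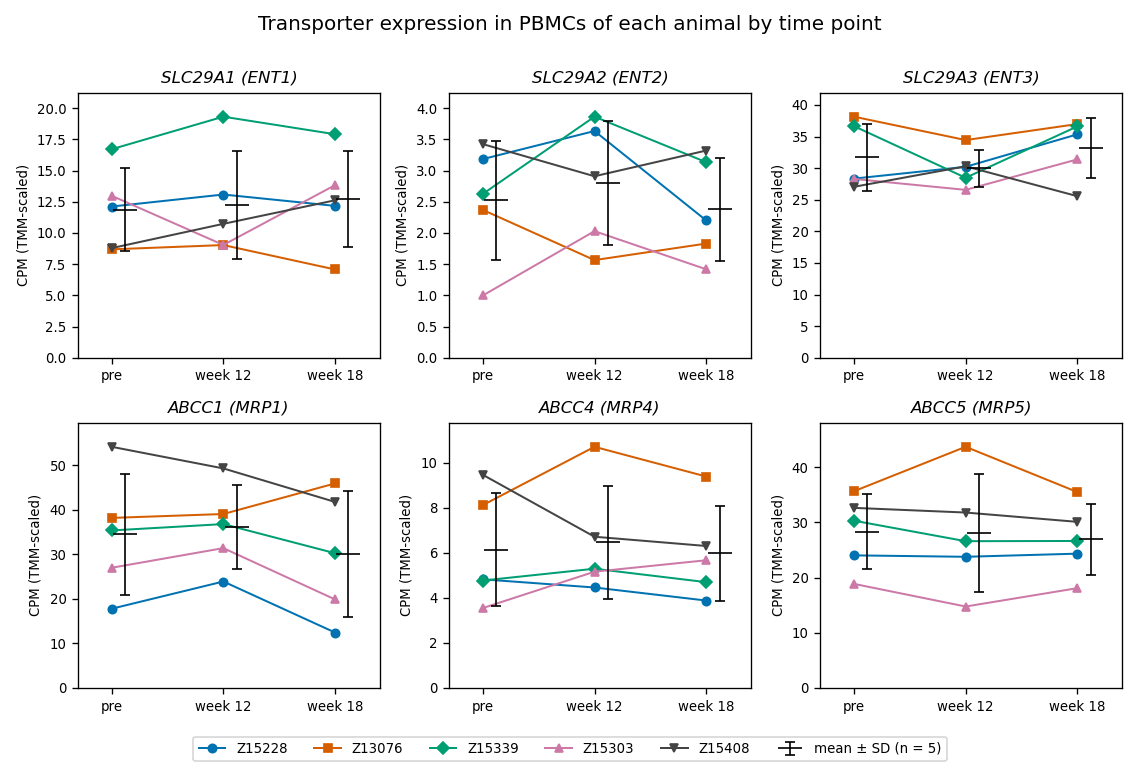
Expression of the 6 transporters (CPM, y axis starting at 0) at pre-treatment, week 12 and week 18 (x axis), with 1 coloured line per animal and black bars for the mean ± SD of the 5 animals. Lines of different animals lie further apart than the means of the time points: *ABCC5* runs from 14.8 CPM in Z15303 to 43.7 CPM in Z13076, both at week 12, while its 3 means lie between 26.9 and 28.3 CPM.

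*SLC29A1* encodes ENT1, the main equilibrative nucleoside transporter of the plasma membrane in most cells. Before treatment its level was 12.1 CPM in Z15228, 8.69 in Z13076, 16.7 in Z15339, 13 in Z15303 and 8.79 in Z15408. At week 12 the same animals had 13.1, 9.03, 19.3, 9.04 and 10.7 CPM, in that order. At week 18 they had 12.2, 7.08, 17.9, 13.8 and 12.6 CPM. Z15339 was highest and Z13076 lowest at every time point, and the 3 groups overlapped widely. The lowest place was a near tie with Z15408 before treatment, with 77 counts each. It was also a near tie with Z15303 at week 12, with 75 counts in Z13076 and 49 in Z15303. The group means were 11.9 ± 3.33, 12.2 ± 4.29 and 12.7 ± 3.88 CPM (SD, n = 5), each differing from the next by less than its SD. In edgeR's quasi-likelihood test the log2 fold change was 0.05 at week 12 (95% interval −0.52 to 0.62) and 0.10 at week 18 (−0.47 to 0.67) against pre-treatment, each with an adjusted p of 1.00. With the animal as a block the intervals narrowed, and at week 12 they spanned a fold of 0.815 to 1.30.

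*SLC29A2* encodes ENT2, a second equilibrative transporter that also carries nucleobases. It was the transporter with the fewest reads, 8 to 35 counts per library, and a count of 8 alone has an exact 95% Poisson interval of 3.45 to 15.8 counts, which covers counting error only. Before treatment it had 3.18 CPM in Z15228, 2.37 in Z13076, 2.63 in Z15339, 0.999 in Z15303 and 3.42 in Z15408. At week 12 these animals had 3.63, 1.57, 3.86, 2.03 and 2.91 CPM, and at week 18 2.20, 1.83, 3.13, 1.42 and 3.32 CPM. Z15303 and Z13076 were the lowest animals at every time point, with no order kept among the other 3. Means were 2.52 ± 0.95, 2.80 ± 0.995 and 2.38 ± 0.824 CPM (SD, n = 5). The edgeR log2 fold change was 0.16 at week 12 (−0.62 to 0.94) and −0.07 at week 18 (−0.86 to 0.72), with an adjusted p of 1.00 in both. With the animal as a block the week 12 interval spanned a fold of 0.733 to 1.68.

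*SLC29A3* encodes ENT3, which works mainly in the membranes of lysosomes and mitochondria rather than at the cell surface. Before treatment its level was 28.3 CPM in Z15228, 38.1 in Z13076, 36.6 in Z15339, 28.3 in Z15303 and 27.1 in Z15408. It was 30.2, 34.4, 28.5, 26.6 and 30.3 CPM in the same animals at week 12 and 35.4, 37.0, 36.6, 31.4 and 25.6 CPM at week 18. This was the most even of the 6 transporters, with a ratio of 1.49 between the highest and lowest of the 15 libraries. Z13076 was highest at all 3 time points, although at week 18 it stood just above Z15339. The means were 31.7 ± 5.26, 30.0 ± 2.91 and 33.2 ± 4.80 CPM (SD, n = 5). Its log2 fold change was −0.08 at week 12 (−0.37 to 0.21) and 0.07 at week 18 (−0.23 to 0.36), with an edgeR adjusted p of 1.00 in both, and these were the narrowest intervals of the 6 genes. The blocked week 12 interval spanned a fold of 0.803 to 1.14.

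*ABCC1* encodes MRP1, a broad exporter of glutathione conjugates and leukotriene C. Its level before treatment was 17.8 CPM in Z15228, 38.1 in Z13076, 35.3 in Z15339, 27.0 in Z15303 and 54.1 in Z15408. At week 12 it was 23.9, 39.0, 36.8, 31.4 and 49.3 CPM in these animals. At week 18 it was 12.4, 45.9, 30.2, 19.9 and 41.7 CPM. Z15228 was lowest at every time point, and the 15 libraries spanned a ratio of 4.35, the widest of the 6 genes. The means of 34.5 ± 13.6, 36.1 ± 9.40 and 30.0 ± 14.2 CPM (SD, n = 5) differed by less than the SD of any group. Against pre-treatment the log2 fold change was 0.07 at week 12 (−0.63 to 0.76) and −0.19 at week 18 (−0.89 to 0.50), with an edgeR adjusted p of 1.00 in both. Blocking by animal narrowed the week 12 interval to a fold of 0.882 to 1.34.

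*ABCC4* encodes MRP4, which exports cyclic nucleotides and the monophosphates of several antiviral nucleoside analogues. Before treatment it had 4.83 CPM in Z15228, 8.13 in Z13076, 4.78 in Z15339, 3.55 in Z15303 and 9.47 in Z15408. The values were 4.46, 10.7, 5.30, 5.17 and 6.72 CPM at week 12 and 3.88, 9.40, 4.70, 5.68 and 6.31 CPM at week 18 in the same animals. Every library of Z13076 and Z15408 lay above every library of the other 3 animals, whatever the time point. Group means were 6.15 ± 2.52, 6.47 ± 2.51 and 5.99 ± 2.12 CPM (SD, n = 5), on 28 to 89 counts per library. Its log2 fold change was 0.08 at week 12 (−0.61 to 0.77) and −0.04 at week 18 (−0.73 to 0.66), with an edgeR adjusted p of 1.00 in both. In the blocked fit the week 12 interval spanned a fold of 0.780 to 1.41.

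*ABCC5* encodes MRP5, an exporter of cyclic nucleotides and nucleotide analogues and a close relative of MRP4 in its choice of substrates. It had 24.0 CPM in Z15228, 35.7 in Z13076, 30.3 in Z15339, 18.9 in Z15303 and 32.6 in Z15408 before treatment. At week 12 these were 23.8, 43.7, 26.6, 14.8 and 31.8 CPM, and at week 18 they were 24.3, 35.5, 26.6, 18.1 and 30.1 CPM. The animals stood in the same order at all 3 time points, from Z13076 through Z15408, Z15339 and Z15228 down to Z15303. Means were 28.3 ± 6.79, 28.1 ± 10.7 and 26.9 ± 6.50 CPM (SD, n = 5). The log2 fold change was −0.00 at week 12 (−0.54 to 0.53) and −0.07 at week 18 (−0.60 to 0.46), with an edgeR adjusted p of 1.00 in both. Blocking by animal narrowed the week 12 interval to a fold of 0.815 to 1.15.

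Week 12 was compared with pre-treatment to ask whether these transcripts differed at the first time point labelled with ISL. Without untreated animals this measures change over time and cannot set ISL apart. In edgeR's test 0 of 6 transporters had an adjusted p under 0.05, where 0% of the 12880 features passed, and with the animal as a block again none passed, where 0.00776% of features did. At an unadjusted p under 0.05 the count was 0 of 6 without the block and 0 of 6 with it, against 1.61% and 4.69% of all features. DESeq2, with or without the block, and limma-voom also called 0 of 6. The log2 fold changes lay between −0.08 for *SLC29A3* and 0.16 for *SLC29A2*, with a median of 0.06 beside 0.00 for all features tested. With the block, the 95% intervals of the 6 genes reached from a fold of 0.733 to 1.68, both ends belonging to *SLC29A2*, and for *SLC29A3* they ran from 0.803 to 1.14. These intervals bound the change and do not show that levels stayed the same.

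**Figure D2:**
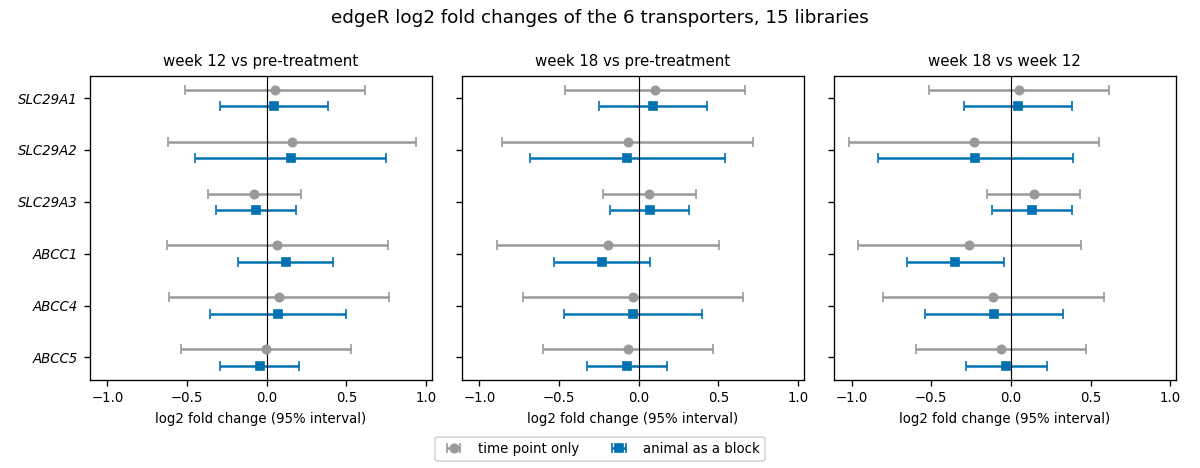
Log2 fold changes (x axis) of the 6 transporters (rows) in the 3 comparisons of time points, with 95% intervals from edgeR's fit with the time point only (grey circles) and with the animal as a block (blue squares). All intervals cross 0 except that of *ABCC1* at week 18 against week 12 with the block, which runs from −0.65 to −0.05.

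Week 18 against pre-treatment asked whether levels differed at the time point that the labels place after the dosing course. Again 0 of 6 transporters passed the adjusted p in edgeR, with 0% of features passing, and 0 of 6 with the block, with 0.00776% of features passing. The count at an unadjusted p under 0.05 was 0 of 6 in both fits, against 1.69% and 5.85% of features. The lowest value was that of *ABCC1*, −0.19 (standard error 0.33) without the block and −0.23 (standard error 0.14) with it, with an edgeR adjusted p of 1.00 and 0.883. The highest was that of *SLC29A1*, and the median of the 6 genes was −0.05.

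The last comparison set week 18 against week 12, the later against the earlier of the samples labelled with ISL. No transporter passed the adjusted p with or without the block, and 0% of features passed in either fit. At an unadjusted p under 0.05, 0 of 6 passed without the block, against 0.505% of features, and 1 of 6 with it, against 2.17% of features. That gene was *ABCC1*, whose log2 fold change was −0.26 (standard error 0.33) without the block and −0.35 (standard error 0.14) with it, with an edgeR adjusted p of 1.00 in both. Of the other 5 genes, *SLC29A1* had 0.05, *SLC29A2* −0.23, *SLC29A3* 0.14, *ABCC4* −0.11 and *ABCC5* −0.06, all as log2 fold changes without the block.

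Within animals, the log2 CPM of *ABCC1* changed from week 12 to week 18 by −0.93 in Z15228, 0.23 in Z13076, −0.28 in Z15339, −0.65 in Z15303 and −0.24 in Z15408. It was lower in 4 of 5 animals, with Z13076 the exception, and the mean was −0.37 ± 0.44 (SD, n = 5; exact sign-flip p = 0.125, two-sided). The 3 animals with shared library dates averaged −0.39 and the other 2 averaged −0.35. Over the 3 comparisons and 6 genes the smallest p of this test was 0.125, and with 5 animals it cannot fall below 0.0625. In the blocked fit without Z13076 the *ABCC1* value at week 18 was −0.51 against week 12 and −0.37 against pre-treatment, with an edgeR adjusted p of 1.00 and 0.382. Without Z15228, Z15303 or Z15339, in contrast, its unadjusted edgeR p at week 18 against week 12 rose above 0.05, to 0.17, 0.0986 and 0.0526.

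**Figure D3:**
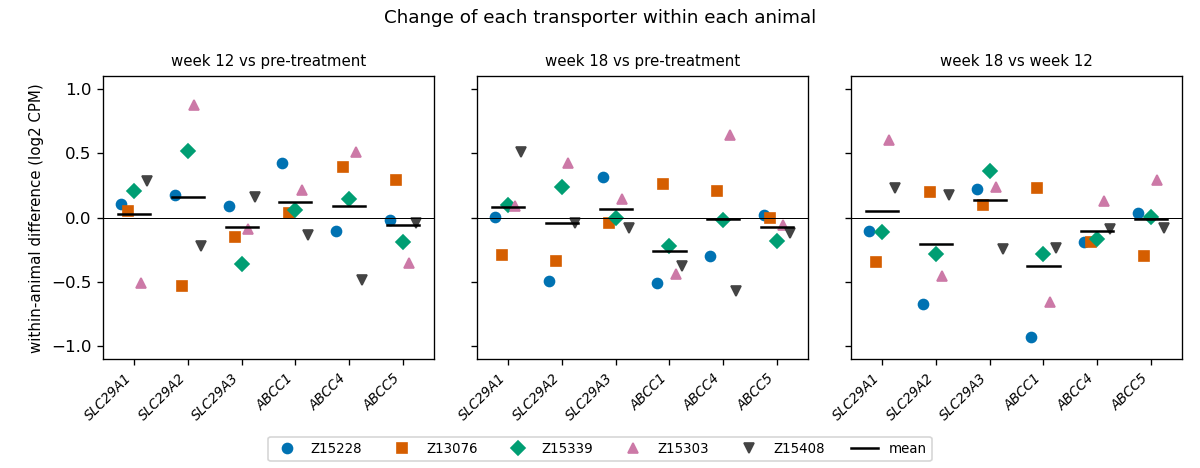
Difference of log2 CPM within each animal (y axis, 1 symbol per animal) for the 6 transporters (x axis) in the 3 comparisons, with black lines for the mean of the 5 animals. Symbols lie on both sides of 0 for every gene in every panel.

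No transporter moved the same way in all 5 animals in any comparison. Lower in 5 of 5 were 0 of 6 at week 12 against pre-treatment, 0 of 6 at week 18 against pre-treatment and 0 of 6 at week 18 against week 12, where 3.45%, 3.49% and 2.87% of all features were. Higher in 5 of 5 were also 0 of 6 each time, against 2.23%, 3.04% and 2.99% of features. The smallest spread of a within-animal change was that of *ABCC5* from pre-treatment to week 18, with a mean of −0.07 ± 0.08 (SD, n = 5; lower in 4 of 5). The CPM ranges of the time points overlapped for all 6 genes, whereas they were separate for 0.28%, 0.334% and 0.101% of features in the 3 comparisons.

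Differences between the animals were larger. Tested over the 5 animals with the time point in the model, 4 of the 6 transporters passed an edgeR adjusted p of 0.05, against 30.9% of the 12880 features. The adjusted p from edgeR was 0.000121 for *ABCC1*, 0.000351 for *ABCC5*, 0.00596 for *SLC29A1* and 0.00964 for *ABCC4*. It was 0.0822 for *SLC29A2* and 0.183 for *SLC29A3*, which did not pass. The call of *SLC29A1* was lost when Z15339 was left out (edgeR adjusted p = 0.221) and that of *ABCC4* when Z13076 was left out (0.11), while *ABCC1* and *ABCC5* passed without any 1 of the 5 animals. Libraries of 1 animal were taken weeks apart, so these p-values set animals against the spread over time within an animal.

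For *ABCC5*, the animal means over the 3 time points were 38.3 ± 4.69 CPM in Z13076, 31.5 ± 1.29 in Z15408, 27.9 ± 2.13 in Z15339, 24.1 ± 0.284 in Z15228 and 17.2 ± 2.18 in Z15303 (SD of the libraries of 1 animal, n = 3). In this order only Z15408 and Z15339 had overlapping libraries. The highest mean was 2.22 times the lowest, in animals of the same treatment. Among all features, 0.427% kept 1 order of the 5 animals at all 3 time points, and among the transporters 1 of 6 did.

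*ABCC1* averaged 48.4 ± 6.23 CPM in Z15408, 41.0 ± 4.24 in Z13076, 34.1 ± 3.44 in Z15339, 26.1 ± 5.80 in Z15303 and 18.0 ± 5.73 in Z15228 (SD, n = 3). Neighbours in this order overlapped in their libraries, apart from Z13076 and Z15339. For *SLC29A1* the mean was 18.0 ± 1.30 CPM in Z15339, and every library of this animal lay above every library of the other 4, whose means ran from 12.5 ± 0.541 in Z15228 to 8.27 ± 1.04 in Z13076. *ABCC4* averaged 9.41 ± 1.30 CPM in Z13076 and 7.50 ± 1.72 in Z15408, and between 4.39 and 4.93 in the others. The animals were therefore not ranked alike by the genes: Z13076 was highest for *ABCC5* and *SLC29A3* and lowest for *SLC29A1* at every time point. Its places for *SLC29A3* and *SLC29A1* include the near ties given above.

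The same animal was highest at all 3 time points for 3 of 6 transporters (*SLC29A1*, *SLC29A3* and *ABCC5*), against 18.6% of features. The same animal was lowest throughout for 3 of 6 (*SLC29A1*, *ABCC1* and *ABCC5*), against 16.5%. Both held for *SLC29A1* and *ABCC5*, 2 of 6, against 4.25% of features.

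**Figure D4:**
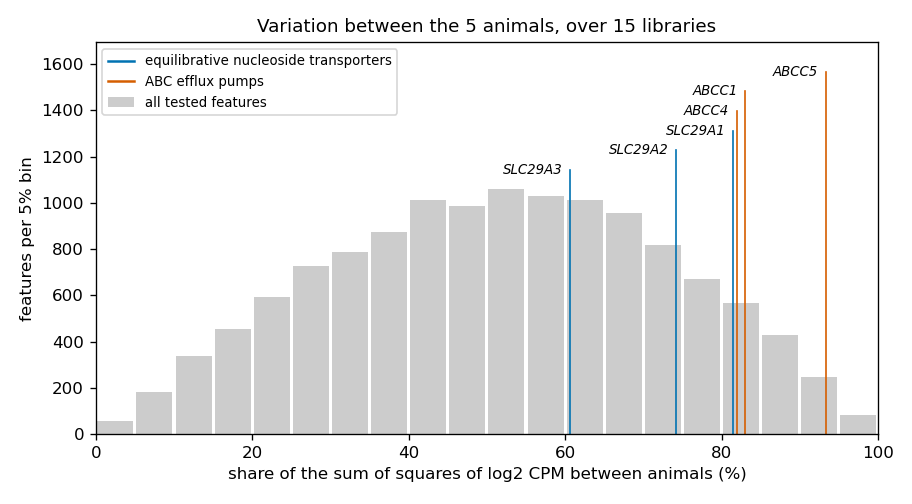
Share of the variation of log2 CPM over the 15 libraries that lies between animals (x axis, %) for all 12880 tested features (grey bars, number of features per bin on the y axis) and for the 6 transporters (vertical lines, whose height carries no value). *ABCC5* stands furthest to the right at 93.4%, and *SLC29A3* is nearest to the median of all features, 51.9%.

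As a share of the sum of squares of log2 CPM, differences between animals made up 93.4% of the variation of *ABCC5*, 83.0% of *ABCC1*, 82.0% of *ABCC4*, 81.5% of *SLC29A1*, 74.2% of *SLC29A2* and 60.6% of *SLC29A3*. The median of the 6 was 81.7%, beside 51.9% over all features. Time points made up 0.594% of the variation of *ABCC5* and at most 8.71%, in *SLC29A3*, with a median of 2.14% beside 6.23% over all features. A larger animal share than that of *ABCC5* was found in 1.17% of features, and one larger than that of *SLC29A3* in 36.1%. All 3 efflux pumps had larger shares than the 3 equilibrative transporters, a description of 6 genes in 15 shared libraries.

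The composition of the PBMCs also varied between animals and time points. All 7 tested B-cell markers of 8 listed were lower in 5 of 5 animals at week 12 and at week 18 than before treatment, with a median log2 fold change of −0.87 and −1.05, although none passed an edgeR adjusted p of 0.05 in these fits. The share of all features lower in 5 of 5 was 3.45% and 3.49%. Their summed level ranged from 239 to 1014 CPM before treatment, 137 to 516 at week 12 and 175 to 427 at week 18. The 9 T-cell markers summed to 1625 to 2355, 1972 to 2564 and 2089 to 2199 CPM at the 3 time points, and the 8 monocyte markers to 2211 to 4309, 2297 to 3700 and 2606 to 5411 CPM. Neutrophil markers, 6 of 8 analysed, summed to 197 to 610 CPM over the 15 libraries, and red blood cell markers, 4 of 8 analysed, to 43.1 to 814 CPM. The mean log2 CPM of the 8 monocyte markers was higher at week 18 than before treatment in 5 of 5 animals. That change averaged 0.30 ± 0.26 (SD, n = 5), from 0.0018 in Z15303 to 0.57 in Z15228. At week 12 it was higher in 3 animals and lower in 2. Taken singly, 6 of the 8 markers had a log2 fold change above 0 at week 18 against pre-treatment, and 2 below. Only 1 of the 8 moved the same way in 5 of 5 animals. Of all features, 3.04% were higher and 3.49% lower in 5 of 5 in this comparison. The 6 transporters were thus measured in a mixture whose B-cell transcripts were lower at both later time points. Its monocyte markers were higher at week 18 in their mean, but not each of them was. The part of these shifts in the transporter values was not tested.

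Some transporters varied together with a marker list over the 15 libraries, as a description, since libraries share animals and CPM values share a library total. Correlations used the mean log2 CPM of each list. *SLC29A1* had r = 0.78 with the 7 proliferation markers, which summed to 148 to 177 CPM in Z15339 and 86.3 to 144 CPM in the other animals, and r = 0.39 once animal means were removed. Its r with the monocyte markers was −0.64, and −0.30 within animals. *ABCC5* had r = 0.68 with the CD8 and NK-cell markers and r = 0.01 within animals. These markers summed to 4518 to 5171 CPM in Z15303, the animal lowest in *ABCC5*, and to 3521 to 10194 CPM in the others. *ABCC4* had r = −0.59 with the B-cell markers and −0.14 within animals, and *ABCC1* had its strongest relation with the dendritic-cell markers, r = −0.47, which was 0.20 within animals. With animal means removed, the strongest relations were others: *ABCC5* had r = −0.67 with the monocyte markers and −0.65 with the dendritic-cell markers, where r over the 15 libraries was −0.12 and −0.23. *SLC29A1* had r = 0.66 within animals with the CD8 and NK-cell markers and 0.63 with the T-cell markers, against 0.21 and −0.04 over all libraries. With the red blood cell markers the r within animals was −0.63 for *SLC29A3* and 0.60 for *ABCC1*, against −0.07 and −0.38 over all libraries. Platelet markers, which summed to 3034 to 11347 CPM, had r = −0.56 with *SLC29A2* over all libraries and −0.23 within animals. Over all libraries *SLC29A2* also had r = 0.56 with the proliferation markers, and *SLC29A3* had r = 0.53 with the CD8 and NK-cell markers. Within animals these were −0.07 and −0.33. The part of any of these cells in the differences between animals or between time points was not tested.

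The genes most like each transporter over the 15 libraries were found by Pearson's r of log2 CPM among all tested features with a symbol. For *ABCC5* they were *LRRC8C* (r = 0.97), *YTHDF1* (0.95) and *PCDH1* (0.93). For *ABCC1* they were *TMEM273* (r = 0.94), *PERM1* (0.91) and *CYSLTR2* (0.89), and for *ABCC4* *TNFRSF10B* (r = 0.92), *GIPC2* (0.92) and *GPR107* (0.92). For the equilibrative transporters they were *DBNDD2* (r = 0.90), *TTC22* (0.88) and *DPH2* (0.87) for *SLC29A1*, *PLCD1* (0.87), *MRPL54* (0.83) and *RARRES1* (0.83) for *SLC29A2*, and *EHHADH* (0.83), *LRRC20* (0.78) and *RNF121* (0.77) for *SLC29A3*. None of these genes was the nearest of 2 transporters. With animal means removed, every one of these r values was lower. They then ran from 0.16 for *SLC29A2* with *RARRES1* to 0.87 for *ABCC4* with *TNFRSF10B*. The r of *ABCC5* with *LRRC8C* was 0.48 and that of *ABCC1* with *PERM1* 0.85. The genes were picked as the largest r among 10773 features, so high values follow in part from that choice.

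Other transporters and enzymes that handle nucleosides were described from lists drawn up beside the 7 genes. In none of these 5 lists did a gene pass an edgeR adjusted p of 0.05 in any comparison, with or without the block. From each list up to 2 genes are given with fold changes, those with the smallest unadjusted p. A shared direction in 5 of 5 animals therefore follows in part from that choice. Lower in 5 of 5 were 3.45% of all features at week 12 and 3.49% at week 18. From week 12 to week 18, 2.99% were higher in 5 of 5. Of 4 other nucleoside transporters, only *SLC29A4*, which carries monoamines and adenosine, had enough counts to be tested. Against pre-treatment its log2 fold change was −0.27 at week 12 and −0.36 at week 18, each with a standard error of 0.53. The concentrative transporters *SLC28A1* and *SLC28A3*, which pull nucleosides in with sodium, had at most 1 and 2 counts in any library, so a change in them was not detectable at this depth.

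Among other ABC pumps, 4 of 9 listed were tested and 8 analysed, *ABCG2* not being analysed here. *ABCC3*, which encodes the organic anion pump MRP3, averaged 28.3, 21.6 and 22.0 CPM at the 3 successive time points. The week 12 level was lower in 5 of 5 animals. Its log2 fold change against pre-treatment was −0.39 (standard error 0.21), with an unadjusted edgeR p of 0.0875 and, with the block, 0.0293. The adjusted p was 1.00 and 0.912 in these edgeR fits. *ABCC2*, which encodes MRP2, had 2 to 24 counts per library and, from week 12 to week 18, a log2 fold change of −0.82 (standard error 0.45). *ABCC6*, which neighbours *ABCC1* in many mammalian genomes and resembles it in sequence, had at most 4 counts in any library.

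Of 10 organic ion transporters, 3 were tested. *SLC22A5*, which encodes the carnitine transporter OCTN2, averaged 12.3, 8.03 and 9.72 CPM at these time points. Both later levels were below the first in 5 of 5 animals. The week 12 log2 fold change was −0.61 (standard error 0.25), and its edgeR adjusted p was 1.00, or 0.491 with the block. *SLC47A1*, which encodes the proton-coupled exporter MATE1, had a week 12 log2 fold change of −0.53 (standard error 0.67) and was lower there in 5 of 5 animals.

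The mitochondrial nucleotide carriers were tested for 6 of 7 genes. *SLC25A24*, an ATP-magnesium carrier of the inner membrane, averaged 33.7, 27.0 and 32.7 CPM at the 3 time points. The log2 fold change was −0.32 from pre-treatment to week 12 and 0.28 from week 12 to week 18, each with a standard error of 0.12. It was lower in 4 of 5 animals in the first comparison and higher in 5 of 5 in the second, with an edgeR adjusted p of 1.00 in both. *SLC25A36*, a pyrimidine nucleotide carrier, had −0.04, −0.10 and −0.06 in the 3 comparisons.

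Of 10 genes of purine nucleoside metabolism, 9 were tested. *DCK* encodes deoxycytidine kinase, which adds the first phosphate to several deoxynucleoside drugs. Its mean was 23.5, 18.1 and 20.5 CPM at the 3 time points, and its week 12 level was lower in 5 of 5 animals, as for 3.45% of all features. That log2 fold change was −0.38 (standard error 0.16), with an edgeR adjusted p of 1.00, or 0.862 with the block. *NT5C2*, which encodes a cytosolic nucleotidase that removes phosphate from purine monophosphates, had log2 fold changes of −0.19 and −0.23 at the later time points against pre-treatment, with a standard error of 0.15 for each. The median over the 9 genes was −0.12 and −0.14 in these comparisons, beside 0.00 and 0.00 for all features.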

How the data were processed

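PBMC libraries from 5 animals at 3 time points were analysed. Per the labels, cDNA was amplified from total RNA with the SMART-Seq v4 kit, which does not mark strand, so overlapping and antisense genes cannot be told apart. The authors aligned the reads with STAR 2.7.9a to the *M. nemestrina* genome and deposited raw read counts per gene.

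Here, R 4.3.3 with edgeR 4.0.16 (quasi-likelihood F test, TMM, filterByExpr with a minimum count of 10, time point as the only term, all 15 libraries) was the main test, adjusted by the Benjamini-Hochberg method over 12880 features. Standard errors were derived from F. Alternatives were the animal as a block, DESeq2 1.42.0, limma-voom (limma 3.58.1), other scalings and filters, and leaving out each animal. Libraries of 1 animal deviated together (mean r = 0.551 over 15 pairs, against −0.137 over 60 pairs of different animals and time points), and the subject labels give the pairing. The main test leaves this pairing out, so its intervals also hold the differences between animals, whereas the blocked fit uses the pairing. Within-animal differences used log2 CPM with a prior count of 2. Fits were also run on simulated counts whose set changes were larger than the transporter estimates here. That run does not show whether changes as small as these would be called.

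All transporters are named whatever their values. From the other lists, the 2 genes with the smallest unadjusted p were named, and genes beyond these were chosen after their values were seen. Members and lists were chosen with earlier results of these data known. The gene table at hand did not match the transporters, so positions, lengths and sequences are not given.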

Additional observations from a re-analysis of the deposited data

Results flagged for a closer look

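Of 36 sets of 5 within-animal differences or levels examined for a value far from the others, 1 was picked out, where chance alone picks out about 1 set in 20. The within-animal change of *SLC29A1* from pre-treatment to week 12 was −0.51 in Z15303 on the log2 CPM scale, while the other 4 animals lay between 0.05 and 0.28. The Z15303 library at week 12 was the shallowest of the 15, with 49 counts of *SLC29A1* (exact 95% Poisson interval 36.3 to 64.8). The part of depth in this value was not tested.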

How the results depend on the processing

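No transporter passed an adjusted p of 0.05 between time points in any of the 9 alternatives or the 10 fits that left out an animal in each comparison, where the smallest adjusted p was 0.382. The animal block gave 1, 1 and 0 features at week 12, at week 18 and between both, and DESeq2 gave 1 feature at week 12, or 23, 50 and 8 with the block. The blocked edgeR and DESeq2 fits each had 1 transporter, *ABCC1*, with an unadjusted p under 0.05 at week 18 against week 12. Leaving out an animal gave 0 to 6, 0 to 17 and 0 features, and 0 to 1 transporter with an unadjusted p under 0.05 in both week 18 comparisons. The counts of 6 and 17, and the 1 transporter at week 18 against pre-treatment, came without Z13076. Between animals, 2284 features without Z15303 to 4291 without Z13076 passed, with 3 to 4 transporters.

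The sign of values near 0 was not stable. For *ABCC5* at week 12 it was positive with DESeq2 (0.0015), its size factors (0.0016), no filter (0.0055) and the libraries of 2 time points (0.0032), and limma-voom gave 0.018 for *SLC29A2* and 0.0032 for *ABCC4* at week 18. Of 159 such log2 fold changes 153 kept their sign and side of the threshold, as did 155 of 180 with an animal left out. Ranges without an animal, both fits, were −0.017 to 0.18 (*SLC29A1*), −0.13 to 0.0087 (*SLC29A3*), −0.062 to 0.27 (*ABCC4*) and −0.14 to 0.045 (*ABCC5*) at week 12. They were −0.014 to 0.17 (*SLC29A1*), −0.17 to 0.0700 (*SLC29A2*) and −0.18 to 0.15 (*ABCC4*) at week 18, and −0.071 to 0.13 (*SLC29A1*) and −0.11 to 0.048 (*ABCC5*) between both. Ranges of the mean within-animal change, added after seeing the data, were −0.035 to 0.16 (*SLC29A1*), −0.0137 to 0.34 (*SLC29A2*), −0.13 to 0.0042 (*SLC29A3*), −0.0138 to 0.23 (*ABCC4*) and −0.15 to 0.013 (*ABCC5*) at week 12. They were −0.023 to 0.18 (*SLC29A1*), −0.16 to 0.0706 (*SLC29A2*) and −0.17 to 0.13 (*ABCC4*) at week 18, and −0.081 to 0.15 (*SLC29A1*) and −0.085 to 0.062 (*ABCC5*) between both. In the 3 animals with shared dates the mean was −0.0077 for *SLC29A1* at week 12, 0.21 for *SLC29A2* and 0.017 for *ABCC4* at week 18, and 0.071 for *ABCC5* between both. In the other 2 it was −0.18 for *SLC29A2* and 0.14 for *ABCC5* at week 12, −0.14 for *SLC29A1* and 0.0061 for *ABCC5* at week 18, and −0.22 for *SLC29A1* between both. The cause was not tested. A mean CPM of at least 5 removed *SLC29A2*. *SLC29A2* had the fewest counts of the 6 transporters, and p-values between time points rest on 5 animals without an untreated group.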

Other observations

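*SLC28A2*, which encodes the sodium-coupled purine nucleoside transporter CNT2, had 5, 5 and 7 counts in the 3 libraries of Z15408 and 0 in the 12 libraries of the other animals. It was not tested because of its low counts. Among all 28865 features, 6 had at least 3 counts in each library of 1 animal and 0 in all libraries of the others, 2 of them in Z15408.

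Some genes of the other lists also differed between animals, and those named here were chosen after their values were seen. *SLC47A1* (MATE1) passed with an edgeR adjusted p of 0.000191, and each library of Z13076 lay above every other library. *NT5C*, which encodes a deoxyribonucleotidase, passed with an edgeR adjusted p of 0.00122, with each library of Z15408 below every other one. *SLC25A4*, which encodes the mitochondrial ADP/ATP carrier ANT1, passed with an edgeR adjusted p of 0.00424, with each library of Z15228 above every other one. Adenosine deaminase, *ADA*, passed with an edgeR adjusted p of 0.00763. Of the 9 tested genes of purine nucleoside metabolism 4 passed, as did 2 of 3 organic ion transporters and 1 of 6 mitochondrial nucleotide carriers. None passed among the 4 tested other ABC pumps, nor did *SLC29A4*. Of all features 30.9% passed, so the named genes do not set these lists apart from other features.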
